A study of Rattus norvegicus with 10 samples.

Results

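Ultraconserved regions are stretches of the genome that are identical in human, mouse and rat, and many of them are copied into RNA, from 1 strand or from both. The array used here carries probes for such regions under names made of uc., a number and a strand sign. Every region with a + probe and a - probe was taken, which gave 479 of the 480 regions on the array. The other, uc.404, had a - probe only, and the 959 ultraconserved probes stood among 38804 probes other than controls. Each of the probes had 1 spot per array. The array files define neither the genome strand that the sign stands for nor the probe sequences, positions or host genes, so the strands are called + and - as in the probe names.

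RNA came from lung tissue of male Wistar rats aged 8 weeks. The LPS group, labelled as septic shock made with lipopolysaccharide (LPS), the endotoxin of Gram-negative bacteria, had 5 samples and the control group had 5. Each sample was labelled with Cy3 and hybridised to its own single-colour Agilent array. Neither the dose, route and time of LPS nor any treatment of the controls is stated in the sources used here. The samples are numbered but not said to come from separate animals, so p-values reflect only how these samples vary, which may be technical.

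Transcribed ultraconserved regions are a class of RNA that was first described in human tissues and is mostly noncoding. Many ultraconserved elements lie in or beside genes for RNA-binding proteins and for transcription factors of development. Those inside genes often span alternatively spliced exons that trigger decay of the transcript, and those between genes often act as enhancers. A region can therefore be read on the strand of its host gene, on the opposite strand, or on both, which a probe for each strand is meant to tell apart.

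The arrays lay on 3 slides. LPS replicates 6 and 7 were on slide 1, LPS replicates 1, 3 and 5 shared slide 3 with control replicate 20, and slide 2 carried the other 4 controls. Between 90.4% and 93.9% of all probes were well above background per array, the scanner software's call used below. No ultraconserved spot was saturated. The 75th percentile of all signals was 380.9 to 495.5 units on LPS arrays, 278.5 to 351.1 on slide 2 controls and 449.9 on control replicate 20. Signals in units are given below without scaling, so they include this difference in brightness between arrays. Control replicate 20 stood apart from the other controls. Over the regions tested below, its strand differences departed from the mean of the other controls with an SD of 0.89 on the log2 scale, against 0.32 to 0.50 for every other array set against the rest of its group. At 189 of 268 regions its value was closer to the mean of LPS arrays than to that of the slide 2 controls. Results on LPS are therefore given with and without it and within slide 3. Whether its label is right was not tested, and every value within slide 3, or with slide as a block, sets 3 LPS arrays against this 1 array. None of 8 lung marker genes, surfactant proteins and Pecam1 among them, had a probe that could be named, so the tissue label was not checked.

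The first question was which strand of each region gave a signal. At 192 of the 479 regions both probes were well above background on all 10 arrays. At 30 regions the + probe was so on all 10 arrays and the - probe on none, and at 26 regions the reverse held. Neither probe was detected on any array at 23 regions, and the other 208 gave mixed calls. Of these 208, the + probe was detected on every array at 61 and the - probe at 73, with the opposite strand detected on some arrays. At least 1 strand was thus read on all 10 arrays at 382 regions.

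Each sign was detected at a similar number of regions. The + probe was detected on all arrays at 283 regions and the - probe at 291. Per array the + probe was detected at 320 to 367 regions and the - probe at 316 to 366. The number of regions with both strands detected ran from 223 on control replicate 20 to 294 on control replicate 17, and was 248 to 287 on the LPS arrays. Regions with only the + strand detected numbered 80 to 93 on LPS arrays and 63 to 97 on controls, and regions with only the - strand 71 to 88 and 67 to 93, so the groups overlapped in each of these counts.

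**Figure D1:**
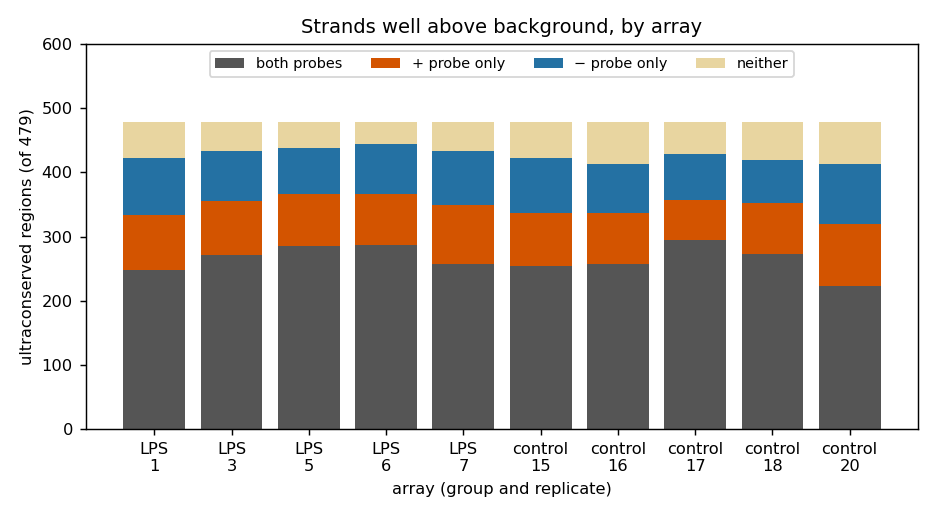
Number of the 479 ultraconserved regions, on the y axis, with both probes, the + probe only, the - probe only or neither probe well above background on each of the 10 arrays. The counts of the 5 LPS arrays and the 5 controls overlap, and control replicate 20 has the fewest regions with both strands, 223.

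Signals were low for most regions. The median over regions of the mean signal was 12.9 for + probes and 13.7 for - probes, in scanner units, against 75.4 for the 37845 other probes. Well above background on all 10 arrays were 59.9% of the members' probes and 87.9% of the other probes. A few regions were bright. The + probe exceeded 1000 units at 8 regions and the - probe at 18, and only uc.420 did so on both, which makes 25 bright regions. The opposite strand had a signal under 100 at 21 of the 25.

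Where both strands were detected on all 10 arrays, the level of the + probe was set against that of the - probe on the same array. This difference, log2 signal of the + probe minus log2 signal of the - probe, needs no scaling between arrays. It includes any difference in how well the probes bind, so a level difference between strands is a description and was not tested. A fixed ratio of binding cancels in a change of that difference between groups of arrays, while any background left in the signals does not. Over the 192 regions the difference had a median of -0.081 and an SD of 2.74 between regions, while its median SD over the 10 arrays was 0.41. The strands thus differed far more from region to region than from array to array.

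The brighter strand was the same on all 10 arrays at 147 of the 192 regions, + at 68 and - at 79. At the other 45 regions the order of the strands varied between arrays, and their mean difference was at most 1.21 on the log2 scale. The probes differed by less than 2-fold at 68 regions, and by at least 4-fold at 71, 26 toward + and 45 toward -. A difference of 16-fold or more was seen at 7 regions toward + and 21 toward -, and of 64-fold or more at 4 and 7. The - strand was thus the more frequent one among wide differences, while the signs had similar numbers of regions detected. Across the 192 regions the level on + said little of the level on -: Pearson's r of the mean log2 signals was 0.12, Spearman's rho was 0.11, and the regions share all 10 arrays.

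**Figure D2:**
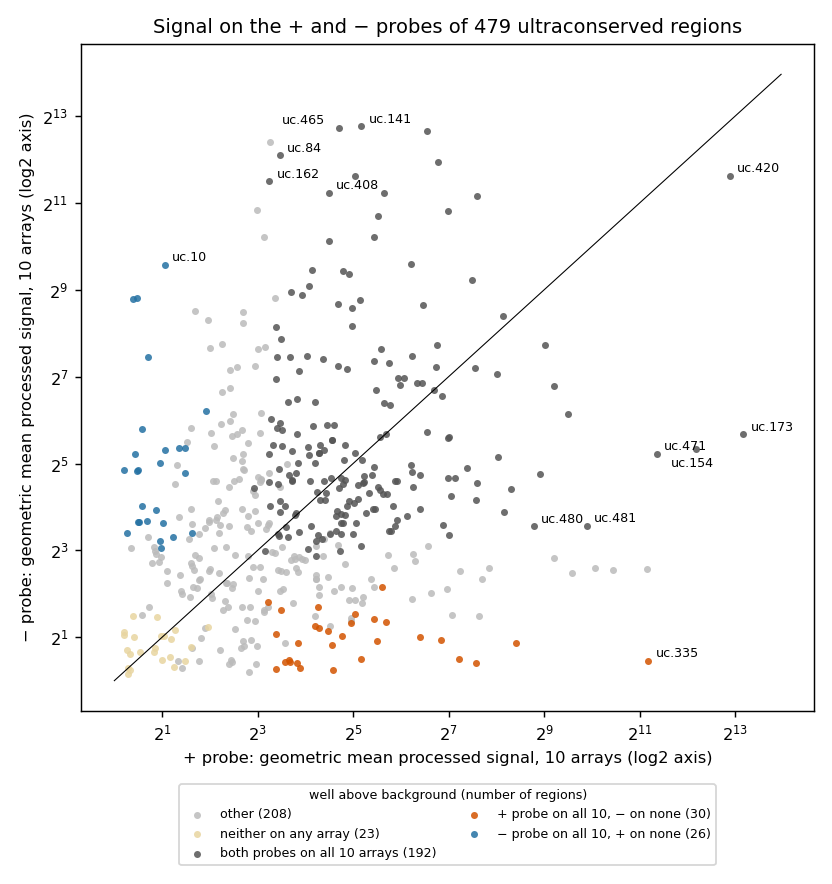
Geometric mean signal over 10 arrays of the + probe (x axis) and of the - probe (y axis) at 479 ultraconserved regions, both on log2 axes, coloured by the arrays on which each probe was well above background. The diagonal marks equal signal, and bright regions lie along either axis, with uc.420 alone at the upper right.

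The widest difference toward + with both strands detected was at uc.173. Its + probe gave 10965, 14748, 14480, 10171 and 13184 units on LPS replicates 1, 3, 5, 6 and 7, and 8489, 5373, 5003, 4395 and 14330 on control replicates 15, 16, 17, 18 and 20. Its - probe gave 44.3 to 78.7 on the LPS arrays and 31.4 to 67.5 on the controls. The + signal was therefore far above the - signal on every array, and the mean log2 difference was 7.50 ± 0.38 (SD, n = 10). The + probe of uc.173 was also the brightest of all members.

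Region uc.154 differed by 6.85 ± 0.20 (SD, n = 10), with + signals from 3065 to 6670 and - signals from 26.9 to 51.8. Region uc.481 differed by 6.34 ± 0.19 (SD, n = 10), uc.471 by 6.13 ± 0.28 (SD, n = 10) and uc.480 by 5.23 ± 0.56 (SD, n = 10). These 5 regions held their order on every array.

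Among regions with both strands detected on all arrays, the widest difference toward - was at uc.84, with a log2 difference of -8.63 ± 0.66 (SD, n = 10). Its - probe gave 3106, 4054, 6123, 6229 and 5958 units on LPS replicates 1, 3, 5, 6 and 7 and 3575, 2753, 3460, 3096 and 8967 on control replicates 15, 16, 17, 18 and 20. Its + probe gave 9.20 to 14.3 on the 10 arrays. Control replicate 20 had the highest - signal of all arrays there.

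Region uc.162 differed by -8.26 ± 0.79 (SD, n = 10) and uc.465 by -8.02 ± 0.66 (SD, n = 10). At uc.141, whose - probe was the brightest of that strand with a mean of 6997 units, the difference was -7.60 ± 0.48 (SD, n = 10), and at uc.408 it was -6.75 ± 0.46 (SD, n = 10). Beside these stood uc.298, where the - probe averaged 5463 units and the + probe 9.63, detected on 9 of the 10 arrays, a log2 difference of -9.15 that was wider than at uc.84.

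Region uc.420 was the exception among bright regions. Its + probe gave 4822 to 10198 units on LPS arrays and 6820 to 8482 on controls, and its - probe 2926 to 4005 and 2591 to 3419. The + strand was the brighter on all 10 arrays, with a mean difference of 1.27 ± 0.44 (SD, n = 10). Both probes were therefore bright on every array at this region.

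**Figure D3:**
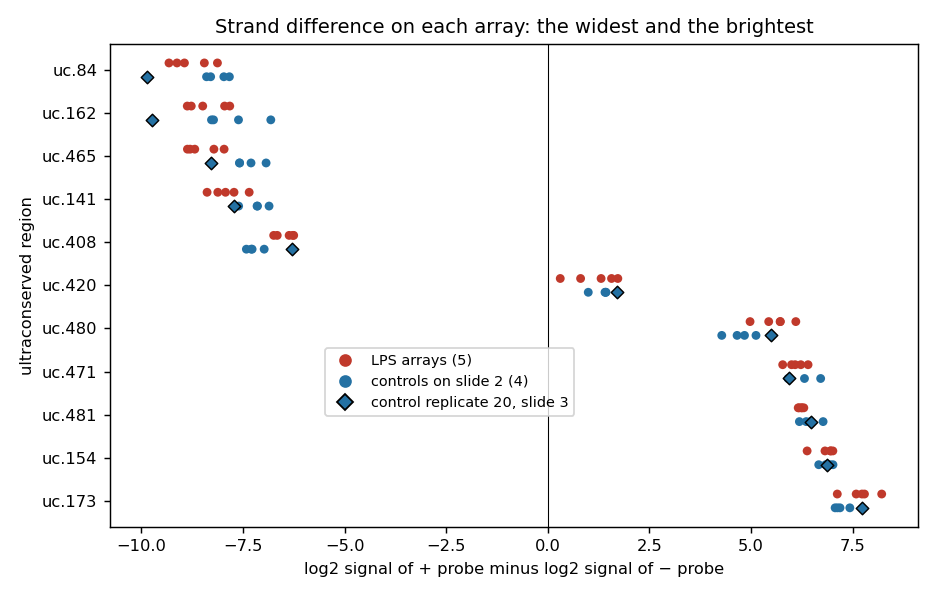
Log2 signal of the + probe minus that of the - probe on each array (x axis) at the 5 regions with the widest difference in each direction and at uc.420 (y axis), with LPS arrays in red, slide 2 controls as blue circles and control replicate 20 as a diamond. No array crosses 0, and control replicate 20 has the most negative value at uc.84, -9.87.

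At the 30 regions read on the + strand alone the mean signal ran from 9.28 upward with a median of 23.7, and 5 exceeded 100 units. The brightest was uc.335, with 3900, 2483, 3036, 2918 and 3558 units on LPS replicates 1, 3, 5, 6 and 7 and 2266, 1677, 1282, 643 and 4775 on control replicates 15, 16, 17, 18 and 20. Its - probe lay at 1.06 to 1.96 units, not well above background on any array. Where a probe is below background only a bound can be given, taken on each array from the higher of its lowest signal well above background and the dim probe's own signal. By it the + signal of uc.335 was at least 442-fold the - signal. For uc.426 the bound was 65.4-fold, for uc.267 36.4-fold and for uc.354 28.2-fold.

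At the 26 regions read on the - strand alone the median of the mean signal was 28.6, and 4 exceeded 100 units. The brightest was uc.10, with 865, 952, 974, 1154 and 974 units on LPS replicates 1, 3, 5, 6 and 7 and 618, 401, 435, 424 and 1643 on control replicates 15, 16, 17, 18 and 20. Its - signal was at least 145-fold the + signal. The bound was 85.3-fold for uc.448, 84.5-fold for uc.92 and 33.5-fold for uc.460. Over the whole class the median bound was 5.45-fold, and 4.52-fold for the regions read on + alone.

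Ultraconserved regions are numbered along the human chromosomes, so consecutive numbers are often neighbours. A preference of at least 4-fold, measured or as a bound, was found at 173 regions with a strand detected on all arrays, 74 toward + and 99 toward -. Among them were 59 pairs of consecutive numbers, and 32 of these pairs, 54.2%, preferred the same sign, against 50.8% of all pairs of the 173. The only run of 4 or more consecutive regions with the same sign was uc.329 to uc.333, singled out after its values were seen, where all 5 preferred -. The - probe of uc.330 averaged 381.5 units against 31.7 on +, and that of uc.331 averaged 55.4 with + not above background.

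The second question was whether the balance of the strands differed between LPS and control lungs. The order of the strands was largely common to both groups. Over the 192 regions the group means shared the brighter strand at 175, and across regions the mean differences in LPS and control arrays had Pearson's r = 0.98, as a description. No region was read on the + strand alone in one group and on the - strand alone in the other. In LPS arrays 48 regions were read on + alone and 54 on - alone on all 5 arrays, against 42 and 35 in controls. In the 4 slide 2 controls, without control replicate 20, they were 48 and 42.

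Detection of a strand moved fully between the groups at 4 regions whose other strand was detected on all arrays or on none. They are named after their values were seen. Regions with mixed calls on the other strand were not counted. The - probe of uc.409 was detected on all 5 controls, at 5.66 to 9.45 units, and on no LPS array, at 3.58 to 6.47. The + probes of uc.313, uc.363 and uc.437 were detected on all LPS arrays and on no control. These signals lie close to the floor of detection, 4.26 to 6.97 units per array. The ranges of uc.409 given above overlapped between the groups. So did those of uc.313 and uc.363, where control replicate 20 gave 6.77 and 7.12 units against 6.14 and 5.95 on LPS replicate 3. For uc.437 control replicate 20 gave 6.34 units and LPS replicate 3 gave 6.42.

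A change of balance was tested at the 268 regions where each probe passed the background call on 5 or more arrays. The test was limma's moderated test on the strand difference of each array, 2-sided, with Benjamini-Hochberg adjustment over all 268 regions, which are the whole table of this measure. In all 55 regions, 20.5% of those tested, passed an adjusted p of 0.05. Of these 17 (6.34% of those tested) shifted toward + in LPS lungs and 38 (14.2%) toward -. The change was at least 2-fold at 22 of the 55. The median change over all 268 regions was -0.045 on the log2 scale, and 122 of them were above 0. LPS and control ranges were separate at 20 of the 55 and at 22 regions in all, 8.21% of those tested.

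Control replicate 20 and the slides bear on this count. Without control replicate 20, 126 regions passed (47.0%), 58 toward + (21.6%) and 68 toward - (25.4%), and all 55 kept their call and direction. At 36 of the 55 its value was closer to the LPS mean than to that of slide 2. With slide as a block, where 3 LPS arrays stand against control replicate 20 alone, 6 regions passed (2.24%), 3 toward + (1.12%) and 3 toward - (1.12%), and uc.158 was the only one of the 55 among them. The direction was kept at 52 of the 55, with a median size of 0.31 in place of 0.92. With slide as a random block 1 region passed (0.373%), again uc.158, and within slide 3 alone limma called 0 regions (0.0%), with 52 at an unadjusted p under 0.05. Slide and group cannot be told apart for the 4 controls of slide 2. After normexp background correction, which adds 50 units to every signal and so shrinks differences between dim probes, 59 regions passed but only 35 of the 55 were among them. With no filter on dim probes 62 passed, 36 of the 55 among them.

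The only region called in all of those fits except the one within slide 3 alone was uc.158. Its + probe gave 17.7, 14.7, 22.3, 28.5 and 28.5 units on LPS replicates 1, 3, 5, 6 and 7, and 9.30, 7.69, 9.73, 7.93 and 12.7 on control replicates 15, 16, 17, 18 and 20. Its - probe gave 36.7, 46.5, 53.8, 48.8 and 49.4 on the LPS arrays and 52.4, 34.9, 56.6, 57.6 and 89.4 on the controls. On every LPS array the + signal was above that of every control, and - stayed the brighter strand on all 10 arrays. The strand difference was -1.11 ± 0.37 (SD, n = 5) in LPS and -2.58 ± 0.27 (SD, n = 5) in controls, a change of 1.47 ± 0.21 (SE; limma adjusted p 0.00255) toward +. The groups did not overlap, and control replicate 20, at -2.82, lay among the other controls. The change was 1.41 without control replicate 20, 0.47 after normexp (limma adjusted p 0.00953) and 1.49 within slide 3 (slide-blocked adjusted p 0.0338), and the random-block fit gave an adjusted p of 0.00831.

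**Figure D4:**
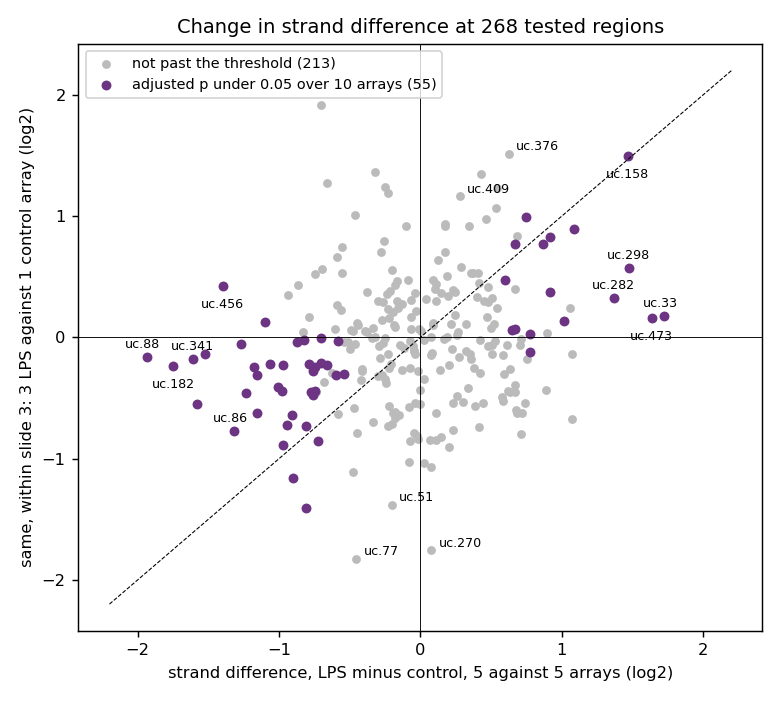
Change in strand difference between LPS and control at 268 tested regions, over all 10 arrays (x axis) and within slide 3, where 3 LPS arrays stand against control replicate 20 (y axis), both on the log2 scale, with the 55 regions past the threshold in purple and the dashed line marking equal changes. Most purple points lie nearer 0 on the y axis than on the x axis, and uc.158, at 1.47 and 1.49, lies on the line.

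The other wide shifts toward + were at uc.33, uc.473, uc.298 and uc.282. At uc.473 the + probe gave 164, 166, 177, 135 and 183 units on LPS replicates 1, 3, 5, 6 and 7 and 34.9, 36.8, 29.8, 36.4 and 143 on control replicates 15, 16, 17, 18 and 20, while its - probe gave 111 to 140 and 88.6 to 135. The slide 2 controls were thus all low on the + strand and control replicate 20 was within the range of the LPS arrays. The strand difference changed by 1.64 ± 0.34 (SE; limma adjusted p 0.0096), and by 2.002 without control replicate 20. After normexp it was 0.98, and within slide 3 it was 0.16 (slide-blocked adjusted p 0.903). The + strand was the brighter on all LPS arrays and on control replicate 20, and the - strand on the slide 2 controls.

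At uc.33 the change was 1.72 ± 0.36 (SE), or 1.57 with dim signals raised to the array's floor, since its - probe was detected on 1 of 5 LPS arrays and 4 of 5 controls. The change was at uc.298 1.48 ± 0.40 (SE) and at uc.282 1.37 ± 0.39 (SE). The limma adjusted p was 0.0096, 0.0243 and 0.0282 in turn. The changes were 2.04, 1.72 and 1.65 with control replicate 20 left out. Within slide 3 the changes were 0.17, 0.57 and 0.33, none of which passed in the slide-blocked fit (adjusted p 0.903, 0.757 and 0.871). The call at uc.298 was lost without LPS replicate 1 or control replicate 17, and that at uc.282 without LPS replicate 1, 5 or 6 or control replicate 15 or 17, with limma adjusted p values between 0.0549 and 0.0647. After normexp the changes at uc.298 and uc.282 were 0.63 and 0.58, and both calls were lost (limma adjusted p 0.247 for each), and that at uc.33 was 0.50.

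Among shifts toward - the widest was at uc.88. Its - probe gave 155, 148, 168, 177 and 163 units on LPS replicates 1, 3, 5, 6 and 7 and 44.4, 30.5, 39.2, 34.6 and 160 on control replicates 15, 16, 17, 18 and 20, while its + probe stayed between 10.1 and 24.6 on all arrays. The strand difference was -3.62 ± 0.41 (SD, n = 5) in LPS and -1.68 ± 1.11 (SD, n = 5) in controls, a change of -1.94 ± 0.43 (SE; limma adjusted p 0.0101). Control replicate 20, at -3.40, lay with the LPS arrays, so the change was -2.37 without it and -0.16 within slide 3 (slide-blocked adjusted p 0.942). After normexp it was -1.06.

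The same pattern held at uc.182 and uc.341. The - probe of uc.182 gave 108, 110, 122, 120 and 114 units on LPS replicates 1, 3, 5, 6 and 7 and 24.1, 27.5, 33.5, 28.2 and 112 on control replicates 15, 16, 17, 18 and 20. The strand difference changed by -1.75 ± 0.34 (SE) at uc.182 and by -1.61 ± 0.34 (SE) at uc.341 (limma adjusted p 0.0096 for each). The changes were -2.13 and -1.93 with control replicate 20 left out, -0.82 and -0.96 after normexp, and -0.24 and -0.18 within slide 3 (slide-blocked adjusted p 0.757 and 0.903). The groups overlapped at uc.182, where LPS replicate 6 stood at -3.35 and control replicate 20 at -3.40, and just missed overlap at uc.341, where LPS replicate 1 stood at -4.04 and control replicate 20 at -4.00.

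At uc.86 and uc.117 the + strand was the brighter on all arrays, and the change toward - narrowed the gap. The - probe of uc.117 gave 30.7 to 63.8 units on LPS arrays, 6.17 to 12.7 on slide 2 controls and 35.7 on control replicate 20, against + signals of 47.3 to 104 on the 10 arrays. The strand difference changed by -1.27 ± 0.28 (SE) at uc.117 and by -1.32 ± 0.42 (SE) at uc.86 (limma adjusted p 0.0101 and 0.0374). They were -1.51 and -1.55 with control replicate 20 left out, and -0.050 and -0.77 within slide 3 (slide-blocked adjusted p 0.963 and 0.579). After normexp they were -0.11 and -0.21, and both calls were lost (limma adjusted p 0.33 for each). The call at uc.86 was also lost with no filter on dim probes (limma adjusted p 0.0595) and when any 1 of these was dropped: LPS replicates 1, 3, 5 and 7, control replicates 16, 17 and 18, with limma adjusted p values of 0.0569 to 0.0855.

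At uc.244 the change was -1.18 ± 0.29 (SE; limma adjusted p 0.0177), -1.41 without control replicate 20 and -0.25 within slide 3 (slide-blocked adjusted p 0.857). After normexp it was -0.25 as well, and the call was lost (limma adjusted p 0.14). Its + probe, detected on 2 of 5 LPS arrays and all 5 controls, lay between 3.98 and 10.6 units, so the size of this change rests on a dim strand. With dim signals raised to the array's floor it was -1.05.

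The brighter strand itself differed between the group means at 7 of the 55 called regions, and at 20 of the 268 tested. At uc.26 and uc.440 it differed on every array, and these regions are named after their values were seen. The + probe of uc.26 gave 48.0, 35.0, 41.4, 42.6 and 37.0 units on LPS replicates 1, 3, 5, 6 and 7 against 24.5, 23.2, 29.2, 26.0 and 27.5 on -, and 18.3, 14.8, 19.0, 16.6 and 38.4 on control replicates 15, 16, 17, 18 and 20 against 21.6, 17.1, 19.5, 24.4 and 40.6 on -. The strand difference was 0.43 to 0.97 in LPS and -0.55 to -0.038 in controls, a change of 0.87 ± 0.18 (SE; limma adjusted p 0.0096). At uc.440 it was -0.27 to -0.15 in LPS and 0.19 to 0.75 in controls, a change of -0.75 ± 0.16 (SE; limma adjusted p 0.0101). Without control replicate 20 the changes were 0.90 and -0.83, and within slide 3 they were 0.77 and -0.44 (slide-blocked adjusted p 0.204 and 0.384). Since the probes may bind unequally, the crossing of 0 does not fix which strand was the more abundant. A fixed ratio of binding cancels in the shift between groups.

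Wide preferences changed about as often as the 20.5% of all tested regions. Of the 71 regions with at least 4-fold between the strands the balance changed at 14, against 17 of the 68 under 2-fold and 10 of the 53 in between. Of the 11 with at least 64-fold it changed at 1, uc.465, by -0.97 ± 0.26 (SE; limma adjusted p 0.0238), by -1.16 without control replicate 20 and by -0.23 within slide 3 (slide-blocked adjusted p 0.857). Its call was lost when any 1 of these was dropped: LPS replicates 3, 5 and 7, control replicates 16 and 17, with limma adjusted p values of 0.0532 to 0.0612. At uc.154 the change was -0.044 and at uc.471 -0.066, with adjusted p values of 0.879 and 0.826. At uc.173 it was 0.38 and at uc.84 -0.32, with adjusted p values of 0.215 and 0.529. Without control replicate 20 the call was made at uc.84, uc.141, uc.408 and uc.480. The changes were then -0.67, -0.71, 0.78 and 0.87 (limma adjusted p 0.0367, 0.0204, 0.00262 and 0.00927). Within slide 3 each had the opposite sign, at 1.36, 0.066, -0.31 and -0.017 in turn. Leaving out LPS replicate 1 brought the call at uc.141 and uc.480 as well (limma adjusted p 0.043 and 0.0366). So did normexp at uc.141 and uc.480 (limma adjusted p 0.0356 and 0.0108), and at uc.408 quantile normalization and the authors' deposited table (limma adjusted p 0.0416 and 0.0397).

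Which strand's signal moved was read from a fit of all 36020 tested probes, scaled to each array's 75th percentile, where 33.0% passed (14.8% higher and 18.2% lower in LPS lungs, of the probes tested). Of 352 + probes of the regions 82 passed, 37 higher and 45 lower, and of 348 - probes 96 passed, 56 higher and 40 lower. Both shares, 23.3% and 27.6%, lay below that of all probes. Without control replicate 20, 178 + probes (96 higher, 82 lower) and 173 - probes (94 higher, 79 lower) passed, against 54.3% of all probes (24.8% higher, 29.5% lower). With slide as a block 8 + probes and 13 - probes were higher, against 4.93% of all probes, and 14 and 13 were lower, against 5.12%. At the 55 regions of changed balance the + probe alone passed at 22, the - probe alone at 18, both at 8 and neither at 7. The + probe rose at 12 and fell at 18 of them, and the - probe rose at 20 and fell at 6. These directions depend on the normalization: after quantile normalization 54 of 88 called + probes and 75 of 105 called - probes were higher, and after normexp background correction 5 of 205 and 17 of 197.

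At 12 regions both probes passed and moved together. At 8 both passed in opposite directions. These 8 were among the 55 of changed balance, which is no separate result, since opposite moves add up in the strand difference. Toward + in LPS lungs, the + probe rose and the - probe fell at uc.158, by 0.77 ± 0.15 (SE) and -0.70 ± 0.14 (SE) on the log2 scale, at uc.64 by 0.47 and -0.61, and likewise at uc.33, where the + probe rose by 0.61 and the - probe fell by a size that is not fixed, being detected on 1 of 5 LPS arrays. Toward -, the + probe fell and the - probe rose at uc.182, by -0.57 ± 0.16 (SE) and 1.18 ± 0.27 (SE), at uc.456 by -0.75 and 0.65, at uc.287 by -0.66 and 0.57, at uc.249 by -0.55 and 0.60 and at uc.66 by -0.46 and 0.44. The limma adjusted p values of these 16 probes lay between 0.00353 and 0.0426. Both directions held at all 8 under quantile normalization, median centring and in the authors' deposited table, with both probes past the threshold at 4, 7 and 4 of them. After normexp both directions held at 3, uc.33, uc.182 and uc.456. With slide as a block both held at 7, with both probes past the threshold at 0 (limma; at uc.158 the adjusted p was 0.0871 for + and 0.0344 for -).

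At uc.456 the - probe gave 2291, 2452, 3088, 2680 and 2822 units on LPS replicates 1, 3, 5, 6 and 7 and 1272, 785, 970, 924 and 3280 on control replicates 15, 16, 17, 18 and 20, and the + probe 97.5 to 128 and 110 to 170. Control replicate 20 had the highest - signal of the 10 arrays. The strand difference changed by -1.40 ± 0.39 (SE; limma adjusted p 0.0253), and this call was lost when any 1 of these was dropped: LPS replicates 3, 5 and 7, control replicates 16, 17 and 18, with limma adjusted p values of 0.0535 to 0.0677. Without control replicate 20 it was -1.84, and within slide 3 it turned to 0.42.

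At uc.64, uc.66, uc.287 and uc.249 the strand difference changed by 1.09 ± 0.25 (SE), -0.90 ± 0.23 (SE), -1.23 ± 0.27 (SE) and -1.15 ± 0.28 (SE). The limma adjusted p was 0.0104, 0.0188, 0.0101 and 0.0156 in turn. Leaving out control replicate 20 gave 1.14, -0.89, -1.38 and -1.38. After normexp they were 0.33, -0.080, -0.44 and -0.21, and the call at uc.66 was lost (limma adjusted p 0.259). Within slide 3 the changes were 0.89, -1.16, -0.46 and -0.31, where the slide-blocked adjusted p lay between 0.126 and 0.757. LPS and control ranges were separate at uc.64, uc.66 and uc.287. The + probe of uc.249 was well above background on 2 LPS arrays and 4 controls, and the - probe of uc.66 on 5 and 3.

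**Figure D5:**
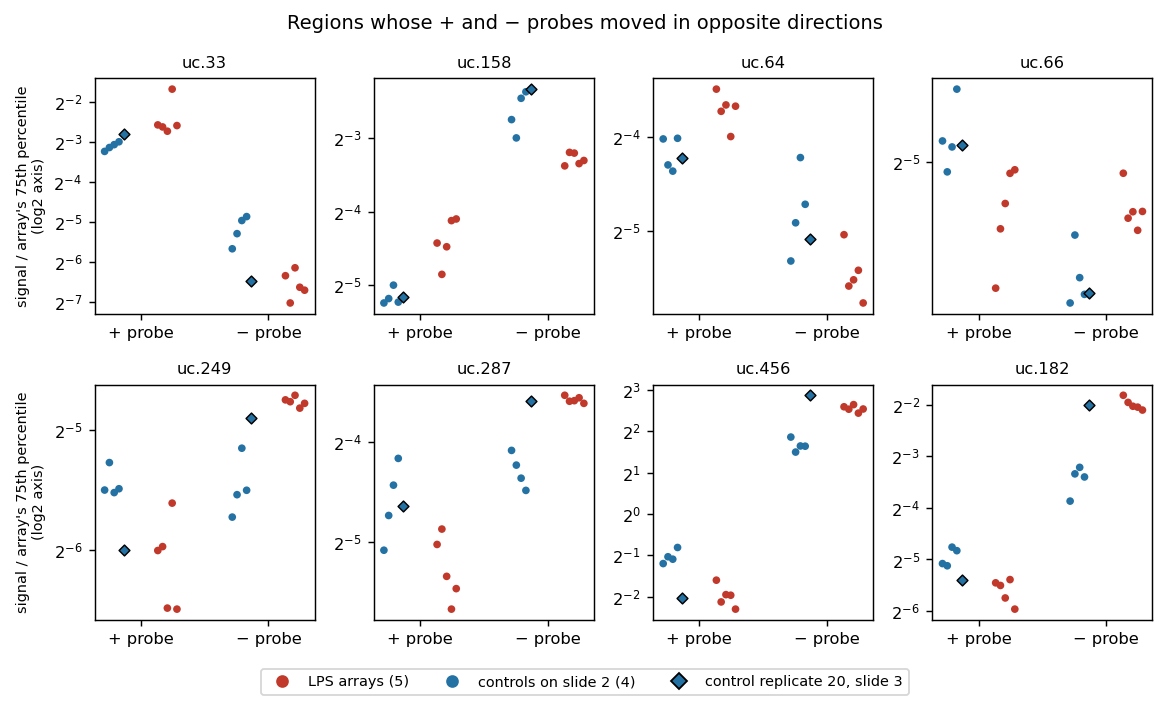
Signal over the array's 75th percentile (y axes, log2) of the + and - probes (x axes) at the 8 regions where both probes passed the threshold in opposite directions, with LPS arrays in red, slide 2 controls as blue circles and control replicate 20 as a diamond. Control replicate 20 lies among the other controls on both probes of uc.158 and near the LPS arrays on both probes of uc.182 and the + probe of uc.456.

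The 5 other regions that passed in the slide-blocked fit were uc.51, uc.77, uc.270, uc.376 and uc.409, singled out after their values were seen. At each, control replicate 20 lay outside the range of the other 9 arrays. At uc.77 its strand difference was 1.22, against -0.86 to 0.062 on the others, with a - signal of 173 units against 193 to 655. At uc.376 it was 1.48, against 2.61 to 3.55, with a - signal of 35.5 against 14.0 to 32.1. Over all 10 arrays the changes at uc.77 and uc.376 were -0.45 and 0.63, with limma adjusted p values of 0.288 and 0.0972.

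At regions read on 1 strand alone, the balance could not be followed, but the detected strand could. Of the 30 regions read on + alone the + probe passed the fit of all probes at 10, 6 higher and 4 lower in LPS lungs. Of the 26 read on - alone the - probe passed at 9, 5 higher and 4 lower, against the 33.0% of all probes given above. The largest named rise was at uc.426, whose + probe gave 672, 726, 533, 438 and 627 units on LPS replicates 1, 3, 5, 6 and 7 and 177, 160, 172, 161 and 406 on control replicates 15, 16, 17, 18 and 20. In these unscaled units all LPS arrays lay above all controls, with LPS replicate 6 and control replicate 20 closest. Scaled to the 75th percentiles of these arrays, 495.5 and 449.9 units, their order reversed, so the groups overlapped. The probe was fitted on signals scaled in that way. It rose by 1.11 ± 0.22 (SE; limma adjusted p 0.0037), by 1.26 without control replicate 20 and by 0.71 within slide 3 (slide-blocked adjusted p 0.14). The - probe of uc.448 rose by 0.65 ± 0.22 (SE; limma adjusted p 0.0402) and by 0.88 without control replicate 20, and the difference within slide 3 was -0.30. At uc.335 and uc.10, the brightest of each kind, the changes were 0.42 and 0.27, with limma adjusted p values of 0.359 and 0.392. Without control replicate 20 they were 0.68 and 0.52, past the threshold at uc.10 (limma adjusted p 0.0766 and 0.00152). At both regions control replicate 20 gave the highest signal of all arrays, also when scaled. Within slide 3 the LPS arrays thus lay below it, and no rise was seen there. In whole lung tissue, a change in the number of cells of a type and a change in RNA per cell cannot be told apart for any of these changes.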

How the data were processed

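The authors deposited 1 scanner file per array, holding intensity values that Agilent Feature Extraction 11.0.1.1 had background-subtracted and detrended, per the file headers, with no scaling between arrays. A deposited log2 table by the authors has 1 column per sample and a lowest value of log2 of 5. The sources used here name no tool for it, and it served as an alternative. Flags for background and outlier spots are those of the deposited files.

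Here log2 of the processed signal was taken, spots of a probe were averaged and outlier spots left out. The strand difference was fitted with limma 3.58.1 in R 4.3.3 (lmFit and eBayes on the groups, no covariate), as was the table of all probes after subtraction of each array's 75th percentile. Probes well above background on fewer than 5 arrays were left out. Slides were read from scan stamps. statmod 1.5.0 served the random block. Fits were tested on simulated data with 60 changed regions and 200 changed probes.

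Members, tests and lists were chosen with earlier results of these data known. Named regions are the 12 widest balance calls whose probes were both detected on every array of a group, the 5 widest differences each way, the 4 brightest regions of each single strand, regions whose probes moved in opposite directions and the 3 brightest probes. Of 8 lung markers 0 had a named probe, since 48 probes carry an accession and 30 of these matched a gene of assembly GRCr8. Region numbers 11, 32 and 453 and probe sequences were not analysed here. The number of arrays limits the precision.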

Additional observations from a re-analysis of the deposited data

Results flagged for a closer look

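For 72 groups of 5 values, the distance from the outermost array to the next was compared with the span of the group. It was wide in 3, where chance at 1 in 20 gives 3.6, and control replicate 20 was the outermost array in all 3. Its strand difference was the lowest of the controls at uc.84 (-9.87, gap 0.723 of the range), at uc.182 (-3.40, gap 0.739) and at uc.456 (-4.90, gap 0.752). The groups share the same 10 arrays. The part of this array in the results was measured by leaving it out, and neither what set it apart nor whether its label is right was tested.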

How the results depend on the processing

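No paired analysis was possible because no replicate number occurs in both groups. The count of 55 regions of changed balance was 49 to 65 under the other normalizations, filters, floor and eBayes settings, with 35 of the 55 kept after normexp, 36 with no filter on dim probes and 52 under quantile normalization. It was 6 with slide as a fixed block, 1 with slide as a random block and 0 within slide 3 (52 at an unadjusted p under 0.05), and 28 to 126 when 1 array was left out, the highest without control replicate 20. Without LPS replicate 3, 5 or 6 it was 33, 28 and 36, and without control replicate 16, 17 or 18 it was 32, 31 and 32. In the authors' deposited values 27 of 65 shifted toward + (41.5%, against 30.9%). Of 82 called + probes and 96 called - probes, normexp gave 205 and 197, the fixed slide block 22 and 26, the random block 8 and 10, slide 3 alone 4 and 6, and leaving out 1 array 46 to 178 and 51 to 173. Detection of 30 + only and 26 - only regions became 57 and 51 when 8 of 10 arrays sufficed and 2 were allowed, with 35 regions read on neither strand. With the software's laxer flag for a positive and significant signal there were 2 and 1, with 352 regions read on both and 2 on neither. Without 1 array they were 30 to 36 and 26 to 30. The balance at uc.456 reversed to 0.422 with slide as a fixed block and within slide 3. Counts of regions with at least 4-fold between strands were 25 and 45 without control replicate 20, chosen after seeing the data, against 26 and 45. The causes were not tested. Low signal limits what can be read of the dimmer strand.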
